A study of Mus musculus with 3 samples.

Results

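Many DUSP, Sprouty and Spred genes encode inhibitors of MAP kinase signalling. The chromatin accessibility of the genes of these families was examined in BCR::ABL1+ mouse B-cell lines with wildtype or kinase-inactive CDK6. They were chosen by symbol among the protein-coding genes of a GENCODE annotation of the mm10 (GRCm38) build, which gave 31 genes of 22028. ATAC-seq, in which a transposase cuts and tags open DNA, had been run on 4 cell lines, and the deposited data were 1 list of peaks per line. To make them, bone marrow cells had been infected with a retrovirus that carries BCR-ABL(p185), the short form of the BCR::ABL1 fusion kinase. Of these, 2 came from mice homozygous for wildtype CDK6 (Cdk6+/+) and 2 from mice homozygous for CDK6-K43M, a kinase-inactive mutant (Cdk6KM/KM). The labels call the cells Pre/Pro-B-cells. All lines carry the oncogene, and no untransformed cells, animal ages or sexes were given. The labels do not say whether a line is 1 clone. The Cdk6+/+ lists are called unnumbered and replicate 2, since 1 list has no sample label and was placed by the design text of the series. That text says that a Cdk6+/+ library came from an earlier submission and was processed again, and a difference between data sets cannot be told apart from the line. Each list averages over the cells of a line, so that a region open in fewer cells and a region less open in each cell cannot be told apart.

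The lists held 33038 peaks in Cdk6+/+ unnumbered, 34248 in Cdk6+/+ replicate 2, 39038 in Cdk6KM/KM replicate 1 and 34752 in Cdk6KM/KM replicate 2. Promoters of 6 of 8 B-lineage marker genes had a peak in all 4 lists. The other B-lineage genes, Rag1 and Cd79b, lacked a promoter peak in Cdk6KM/KM replicate 2 alone. None of 8 marker genes of T cells, myeloid cells, erythroid cells, liver or heart had a promoter peak in any list. The K43M change is a point mutation, which a peak list cannot show, so the genotype labels could not be checked. There were 2 lines per genotype. The p-values of limma, used below for enrichment, set a difference against the spread between these lines, moderated by that of all tested regions. An exact two-sided permutation test over the 6 assignments of 4 lists cannot give a p below 0.33.

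Growth factor receptors and BCR::ABL1 activate RAS, which passes the signal through RAF and MEK to the MAP kinase ERK. Many DUSP phosphatases remove phosphate from MAP kinases. Sprouty proteins restrain the activation of RAS and RAF, and Spred proteins bring the RAS inactivator neurofibromin to the membrane. Many of these genes are transcribed in response to ERK itself and so close a feedback loop, which pre-B cells transformed by BCR::ABL1 are known to need. The 31 genes comprised 4 nuclear inducible phosphatases, 3 cytoplasmic ERK phosphatases, 3 phosphatases of the stress kinases JNK and p38, 14 atypical DUSPs, 4 Sprouty genes and 3 Spred genes. All are called feedback genes below by family name, although a role in ERK feedback is not established for each, least of all the atypical DUSPs.

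Sequences are printed for the open regions on which the comparisons turn, all on the plus strand of GRCm38. Each is the stretch around the summit of the highest peak, 200 bases long where no annotated untranslated region lay within it and otherwise the longest stretch free of one. Capitals mark matches, on either strand, to 8 motifs: ETS (CCGGAAGT), AP-1 (TGANTCA), CRE (TGACGTCA), SP1 (GGGGCGGGG), EBF core (CCCNNGGG), STAT (TTCNNNGAA), RUNX (TGTGGT) and the CArG box of serum response factor. The first set shows the regions with a peak in both lists of 1 genotype only. The Spred2 exon and the Dusp10 intron are the best ranked regions of this kind for Cdk6KM/KM and Cdk6+/+, and the Dusp18 and Spred3 sequences belong to the promoters that had a peak in Cdk6KM/KM lists alone.
Spred2 exon, chr11:19998135-19998334: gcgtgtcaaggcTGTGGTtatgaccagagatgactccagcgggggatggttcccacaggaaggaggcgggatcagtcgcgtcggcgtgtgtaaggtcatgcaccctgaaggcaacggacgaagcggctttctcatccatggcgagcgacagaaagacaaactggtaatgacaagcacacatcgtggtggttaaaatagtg
Dusp18 promoter, chr11:3895099-3895239: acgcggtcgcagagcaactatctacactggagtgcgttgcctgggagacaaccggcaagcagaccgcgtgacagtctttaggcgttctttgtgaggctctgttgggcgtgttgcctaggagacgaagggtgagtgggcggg
Spred3 promoter, chr7:29170080-29170209: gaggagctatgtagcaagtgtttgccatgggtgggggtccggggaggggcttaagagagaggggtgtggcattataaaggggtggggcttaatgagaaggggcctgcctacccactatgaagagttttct
Dusp10 intron, chr1:184014175-184014374: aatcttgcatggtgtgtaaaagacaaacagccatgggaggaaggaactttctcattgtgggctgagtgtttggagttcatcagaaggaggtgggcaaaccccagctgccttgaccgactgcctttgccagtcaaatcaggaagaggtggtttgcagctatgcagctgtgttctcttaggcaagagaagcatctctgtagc

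The second set shows regions that every list held. The first pair differed most between genotypes in each direction, the next pair was the strongest shared promoter region and the strongest shared region outside promoters that held no untranslated region, and the Dusp5 promoter carried a CArG box.
Dusp10 upstream, chr1:184005725-184005924: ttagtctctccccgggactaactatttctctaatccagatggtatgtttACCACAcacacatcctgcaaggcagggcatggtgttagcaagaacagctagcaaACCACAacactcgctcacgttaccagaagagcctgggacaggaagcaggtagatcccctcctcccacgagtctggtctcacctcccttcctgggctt
Dusp22 intron, chr13:30686090-30686289: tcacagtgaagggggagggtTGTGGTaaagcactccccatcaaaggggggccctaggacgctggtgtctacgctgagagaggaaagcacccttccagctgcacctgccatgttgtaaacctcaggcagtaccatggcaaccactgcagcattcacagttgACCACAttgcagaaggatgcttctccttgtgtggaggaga
Dusp22 promoter, chr13:30660192-30660391: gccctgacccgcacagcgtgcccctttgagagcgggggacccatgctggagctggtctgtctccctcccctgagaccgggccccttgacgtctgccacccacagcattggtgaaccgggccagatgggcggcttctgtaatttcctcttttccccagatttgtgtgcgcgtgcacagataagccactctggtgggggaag
Dusp1 intron, chr17:26538146-26538345: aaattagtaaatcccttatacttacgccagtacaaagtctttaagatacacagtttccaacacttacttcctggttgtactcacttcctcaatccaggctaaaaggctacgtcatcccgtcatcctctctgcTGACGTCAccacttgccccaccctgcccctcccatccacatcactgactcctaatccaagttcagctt
Dusp5 promoter, chr19:53528973-53529108: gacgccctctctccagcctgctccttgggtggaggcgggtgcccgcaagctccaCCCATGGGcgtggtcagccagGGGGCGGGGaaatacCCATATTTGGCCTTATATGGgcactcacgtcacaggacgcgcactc

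The promoters of most feedback genes were open in both genotypes. A promoter window spanned the 2000 bp before and the 200 bp after each annotated transcript start, and a peak counted with 1 bp of overlap. By this measure, 22 of the 31 genes (71.0%) had a promoter peak in all 4 lists, where 47.5% of all protein-coding genes did. Another 2 genes (6.45%), Dusp18 and Spred3, had one in both Cdk6KM/KM lists and in neither Cdk6+/+ list, a pattern shown by 1.99% of all genes. No gene showed the opposite pattern, which 0.513% of all genes did. No promoter peak was found in any list for 5 genes (16.1%, against 43.5% of all genes), namely Dusp9, Dusp21, Dusp26, Dusp27 and Spry3. Dusp8 lacked a promoter peak only in Cdk6+/+ replicate 2, and Dusp15 had one only in Cdk6KM/KM replicate 2.

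Counted by list, 23 and 22 of the genes had a promoter peak in the Cdk6+/+ lines and 25 and 26 in the Cdk6KM/KM lines. The genotypes did not overlap, and the mean difference of 3.0 genes exceeded the gap of 1 between lines of a genotype, with an exact permutation p of 0.33, the smallest possible. Over all protein-coding genes the counts were likewise higher in the Cdk6KM/KM lists, with 11140 and 11106 in Cdk6+/+ and 11863 and 11558 in Cdk6KM/KM. Differences between the list lengths moved with this result. When all lists were cut to equal length, Dusp18 and Spred3 were again the only promoters with a peak in Cdk6KM/KM lists alone. The cut removes peaks and adds none, so it could not have given either promoter a Cdk6+/+ peak. Whether list length has a part in their absence from the Cdk6+/+ lists was not tested.

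**Figure D1:**
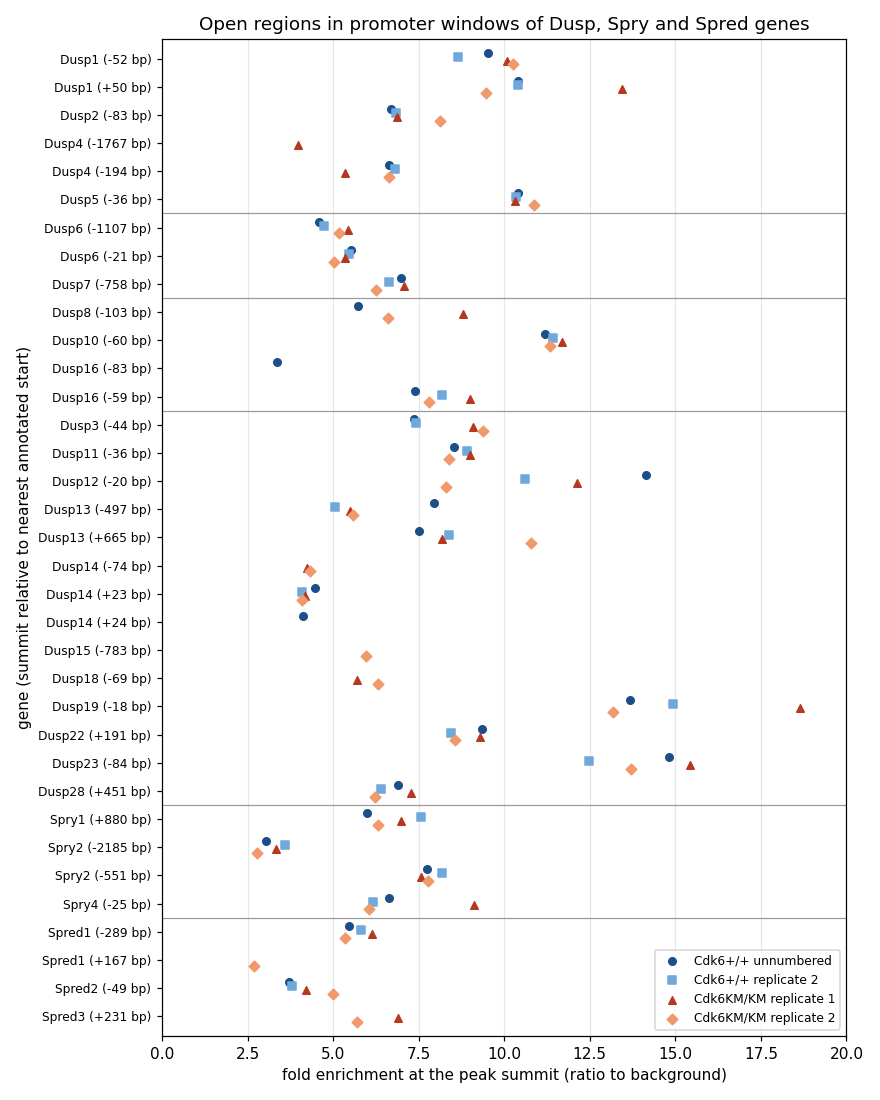
Fold enrichment at the summit (x axis, ratio of signal to background in the same list) of each open region in a promoter window of a Dusp, Spry or Spred gene, with 1 point per list and horizontal lines between role groups. Most regions have 4 points close together, whereas Dusp18, Spred3 and a region of Dusp14 have points from both Cdk6KM/KM lists only. Another 5 regions have 1 point. It is from a Cdk6KM/KM list at Dusp4, Dusp15 and Spred1, and from Cdk6+/+ unnumbered at Dusp14 and Dusp16.

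Enrichment values below are the deposited ratios of summit signal to local background, given in the order Cdk6+/+ unnumbered, Cdk6+/+ replicate 2, Cdk6KM/KM replicate 1 and Cdk6KM/KM replicate 2. They are not read counts, and the read depth of each library is not given. Differences of shared regions are on the log2 scale, Cdk6KM/KM minus Cdk6+/+, with the standard error (SE) of limma. Distances are from the region's highest summit to the nearest annotated start.

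All 4 nuclear inducible phosphatases had a promoter peak in every list. Dusp1, an immediate early gene that acts on ERK, JNK and p38, had enrichments of 9.52, 8.64, 10.1 and 10.3 at its main group of starts. A second window, at a distant start that it shares with the promoter of Ergic1, had 10.4, 10.4, 13.4 and 9.46. Dusp5, which is specific for ERK, had 10.4, 10.3, 10.3 and 10.9, with a difference of 0.03 (SE 0.14). Dusp2, the phosphatase of activated lymphocytes, had 6.70, 6.83, 6.85 and 8.12, and Dusp4, another ERK target, had 6.62, 6.82, 5.34 and 6.64. The lists of the genotypes overlapped for Dusp4 and Dusp5. They did not overlap for Dusp2 or for the main Dusp1 region, where both Cdk6KM/KM values were above both Cdk6+/+ values by 0.15 (SE 0.20) and 0.17 (SE 0.15). How many of all shared regions separate in this way was not counted, here or for the genes below. No region of these 4 genes was held by both lines of a genotype and missing from both lines of the other.

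Of the cytoplasmic ERK phosphatases, Dusp6 and Dusp7 had open promoters in every list and X-linked Dusp9 had none. Dusp6, the best known feedback phosphatase of ERK, had 5.53, 5.46, 5.35 and 5.03 at its start and 4.59, 4.74, 5.42 and 5.17 at -1107 bp. The genotypes did not overlap at either region, but the differences had opposite signs, -0.08 (SE 0.20) and 0.19 (SE 0.19), and neither exceeded its SE. Another Dusp6 region, 3281 bp from the start and past the end of the gene, had 7.53, 9.17, 6.98 and 5.67, which was lower in both Cdk6KM/KM lists and gave -0.40 (SE 0.20). It did not pass the test described below. Dusp7 had 6.99, 6.62, 7.06 and 6.25 at its promoter, where the genotypes overlapped.

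Dusp10, which acts on JNK and p38, had the best ranked promoter of the group. The region had 11.2, 11.4, 11.7 and 11.3, and by the deposited q-value the peak stood at percentile 99.9 of each list. It was 1562 bp wide and also overlaps the promoter window of 1700056E22Rik, and its difference of 0.03 (SE 0.12) was smaller than its SE. Dusp16, a relative with the same substrates, had 7.39, 8.17, 8.99 and 7.79 at its promoter. Dusp8 had 5.72, no peak, 8.79 and 6.61.

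Of the 14 atypical DUSPs, small phosphatases of diverse substrates, 9 had a promoter peak in every list. Dusp19 had the highest mean, with 13.7, 14.9, 18.6 and 13.2 in a region that also covers the promoter of Nup35. Dusp23 followed with 14.8, 12.5, 15.4 and 13.7. Dusp12 had 14.2, 10.6, 12.1 and 8.28, a range wider between the lines of a genotype than between genotypes. Its region also lies in the promoter window of Gm26620. Dusp3, which can act on ERK and JNK, had 7.35, 7.42, 9.08 and 9.36, with both Cdk6KM/KM values above both Cdk6+/+ values and a difference of 0.32 (SE 0.17) in a region shared with Cfap97d1. The other 5 genes, Dusp11, Dusp13, Dusp14, Dusp22 and Dusp28, had mean enrichments from 4.21 to 8.91 in their shared promoter regions. The stronger Dusp13 region also lies in the promoter window of Samd8.

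Spry2, an inhibitor of receptor tyrosine kinase signalling that ERK induces, had 7.73, 8.19, 7.57 and 7.77, a difference of -0.05 (SE 0.18). Spry1 had 6.0, 7.58, 6.98 and 6.32, and Spry4 had 6.64, 6.17, 9.13 and 6.04, each with overlapping genotypes. Spred1 had 5.47, 5.82, 6.12 and 5.34. Spred2 had 3.72, 3.79, 4.21 and 4.99, with both Cdk6KM/KM values above both Cdk6+/+ values by 0.29 (SE 0.19).

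The promoters with a peak in Cdk6KM/KM lists alone did not rank high in those lists. Nor did every shared promoter, as the shared Dusp14 region stood at percentiles 14.4, 17.0, 25.4 and 20.1. Dusp18 had enrichments of 5.71 and 6.31 in the Cdk6KM/KM lists, at percentiles 21.6 and 31.2 of their q-values, over 244 bp that also lie in the promoter window of 4921536K21Rik. The nearest Cdk6+/+ peak was 18301 bp away. Spred3 had 6.89 and 5.71, at percentiles 55.2 and 33.5, over 1003 bp that also fall in the promoter window of Ggn, and the nearest Cdk6+/+ peak was 9755 bp away. For both regions the neighbouring genes cannot be told apart from the feedback gene. Both Cdk6KM/KM-only promoters stood in each of the 9 alternatives to the peak threshold, window and list set. No alternative could have given them a Cdk6+/+ peak, since none added peaks and the nearest lay outside every window. Those for threshold, list length and window could only have removed Cdk6KM/KM peaks. They do not bear on whether Cdk6+/+ signal fell short of a peak. Those that left out a list could not have removed the promoters, since fewer lists then had to hold or lack a peak. Dusp8 joined them when Cdk6+/+ unnumbered was left out, and Dusp15 when Cdk6KM/KM replicate 1 was.

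**Figure D2:**
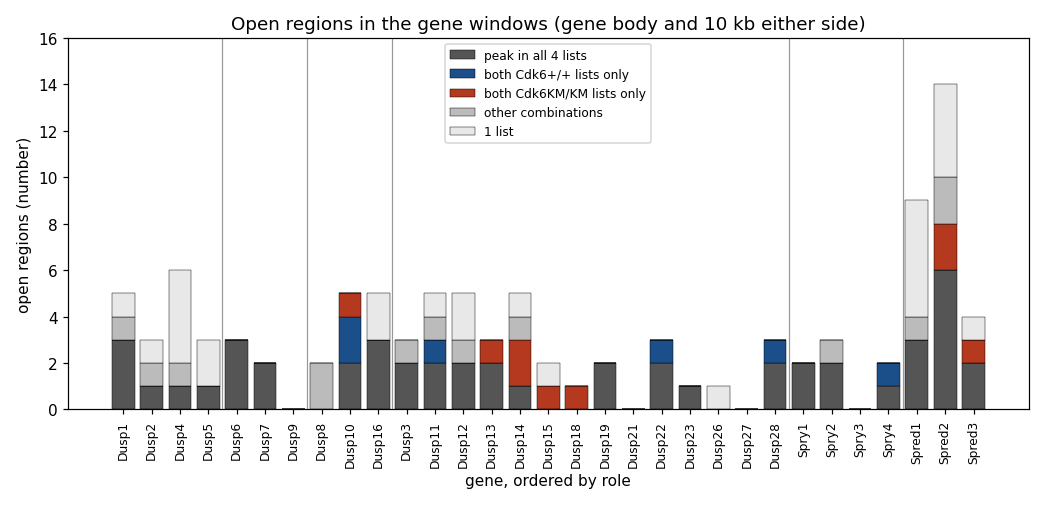
Number of open regions (y axis) in the window of each gene, which is the gene body and 10 kb either side, stacked by the lists that hold a peak. Spred2 has the most regions, 14, of which 2 are in both Cdk6KM/KM lists only, and 4 genes have none.

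Regions over the whole gene windows were examined next. Overlapping peaks of the 4 lists were merged into 50965 regions, of which 102 fell in the gene body or the 10 kb either side of a feedback gene. The number of peaks in these windows was 79 and 72 in the Cdk6+/+ lines and 77 and 77 in the Cdk6KM/KM lines. The difference of 1.5 was smaller than the gap of 7 between the Cdk6+/+ lines (exact permutation p = 1.0), and it changed sign to -2 without Cdk6+/+ replicate 2. All 4 lists held 48 of the regions (47.1%, against 45.0% of all regions in protein-coding gene windows), and 26 regions (25.5%, against 26.5%) had a peak in 1 list. Both Cdk6KM/KM lists alone held 9 regions (8.82%, against 7.82%) and both Cdk6+/+ lists alone held 6 (5.88%, against 3.79%). The order of these counts was not stable, with 8 against 9 for peaks of -log10 q of at least 5 and 8 against 8 for lists of equal length. The shares in all lists and in Cdk6KM/KM alone were near those of all gene windows. The counts depended on the lists, as leaving out 1 list in turn gave 10 to 17 Cdk6KM/KM-only and 10 to 15 Cdk6+/+-only regions, since fewer lists then had to hold or lack a peak.

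The 9 Cdk6KM/KM-only regions lay at 7 genes. Spred2 held a pair, an intronic region with enrichments of 9.86 and 7.0 and the exonic region printed above, with 13.1 and 8.99. The exonic region, chr11:19997932-19998445, was the best ranked, with its lower percentile at 71.5, and the nearest Cdk6+/+ peak was 25192 bp away. Dusp10 held an intronic region with 7.63 and 6.17, and Dusp13 one downstream with 6.66 and 8.26. Dusp14 held an intronic region with 5.05 and 4.85 and a promoter region with 4.22 and 4.31, the latter 426 bp from a Cdk6+/+ peak. Dusp15 held one downstream with 4.09 and 6.13. The other 2 were the Dusp18 and Spred3 promoters. Of the 9 regions, 3 were in promoter windows, and 2, both in Spred2, ranked above the median in both lists.

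The 6 Cdk6+/+-only regions lay at 5 genes, all outside promoter windows and all ranked below the median in at least 1 list. The Dusp10 intron had 7.39 and 7.25, 973 bp past the distal start of the gene, and a second Dusp10 region upstream had 5.83 and 6.54 with a Cdk6KM/KM peak 141 bp away. Regions at Dusp28 (4.66 and 4.73, downstream), Dusp11 (3.92 and 4.53, upstream), Dusp22 (7.20 and 5.59, upstream) and the Spry4 intron (4.56 and 4.66) completed the set. On chromosome 13, which carries Dusp22, the background under shared peaks relative to that of the autosomes was 0.05 and -0.01 (log2) in the Cdk6+/+ lists and -0.43 and -0.50 in the Cdk6KM/KM lists. On chromosome 18, which carries Spry4, it was 0.24 and 0.28 against -0.16 and -0.20. Its part in the missing peaks was not tested. Without these chromosomes the counts were 9 Cdk6KM/KM-only and 4 Cdk6+/+-only regions.

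**Figure D3:**
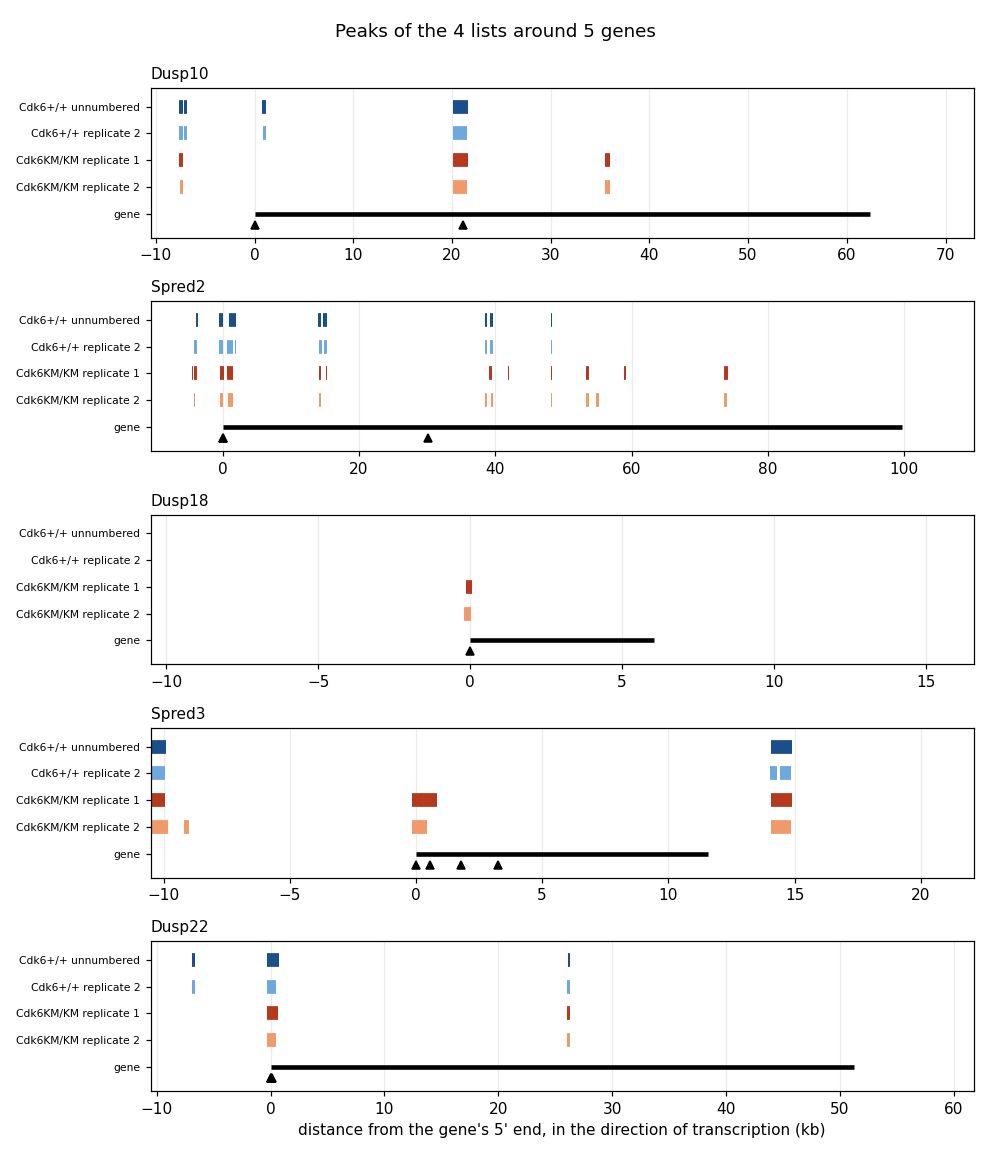
Peaks of the 4 lists as bars drawn to scale along the windows of Dusp10, Spred2, Dusp18, Spred3 and Dusp22, with distance from the 5′ end of the gene in kb on the x axis, the gene as a black line and annotated starts as triangles. Dusp10 has Cdk6+/+-only peaks near 0 kb and Cdk6KM/KM-only peaks near 36 kb, and Spred2 has Cdk6KM/KM-only peaks past 50 kb.

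Enrichment at the 48 shared regions was compared with limma over the 21012 regions that had a peak in every list. No feedback region passed an adjusted p (Benjamini-Hochberg) of 0.05 in either direction, where 0.0619% of all tested regions were called higher and 0.0476% lower in Cdk6KM/KM. At an unadjusted p under 0.05, 2 feedback regions were higher and 1 was lower, against 6.44% and 5.79% of all regions. The differences were positive for 27 regions and negative for 21, with a median of 0.03 beside 0.00 over all regions and a median SE of 0.19. At promoters the range was narrow: the 26 shared promoter regions of 22 genes differed by -0.29 to 0.32, and 21 of them by no more than 0.2. Of these 26, 6 also lay in a promoter window of another gene. The 22 shared regions outside the promoter windows of the feedback genes ranged from -0.82 to 0.81, and 12 of them lay within 0.2. Of these 22, 5 lay in a promoter window of another gene.

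The region furthest toward Cdk6+/+ was upstream of Dusp10, at -7477 bp from its distal start, with enrichments of 9.76, 9.35, 5.74 and 5.08. Both Cdk6+/+ values were above both Cdk6KM/KM values, by -0.82 (SE 0.19, limma adjusted p = 0.107). The summit pileups recovered from the deposited values were 40, 39, 13 and 9. The recovered background, 160, 164, 72.0 and 48.4 read ends per 10 kb, was also lower in both Cdk6KM/KM lists. The value of 48.4 was the lowest of its list over the feedback regions and may be a floor of the peak caller. Tested on the pileup, the difference was -1.67 (SE 0.29) and passed (limma adjusted p = 0.004). The pileup gave more calls everywhere, with 503 of 21012 regions higher and 422 lower, against 13 and 10 by fold enrichment. Over all alternatives the adjusted p ran from 0.00396 to 0.301. The Cdk6+/+-only region at -6978 bp adjoins this one. The Dusp10 promoter lies 21 kb inside the 5′ end of the gene, and whether its difference is unlike that of the upstream region was not tested.

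The region furthest toward Cdk6KM/KM was an intron of Dusp22, a phosphatase of SRC family kinase signalling, with 5.20, 5.62, 9.66 and 9.24. The difference was 0.81 (SE 0.19, limma adjusted p = 0.116), and the pileups were 11, 11, 22 and 21. It passed only without Cdk6+/+ replicate 2 (0.86, SE 0.25, adjusted p = 0.0416), with adjusted p up to 0.349 in other alternatives. The recovered background was 65.3, 56.7, 69.0 and 69.0 read ends per 10 kb. The Cdk6+/+ values were the lowest of their lists over the feedback regions and may be a floor of the peak caller. Local background below such a floor is not seen, so the genotypes were not compared on it here. The background values are not scaled for depth, unlike those given above for chromosome 13, so the 2 cannot be compared directly. The Dusp22 promoter differed by 0.01 (SE 0.16) in enrichment. Its pileups were 47, 41, 28 and 25 over a background of 207, 199, 106 and 102, and on the pileup it differed by -0.61 (SE 0.23, limma adjusted p = 0.155). A Dusp16 intron had 6.0, 5.11, 7.85 and 8.08 and a difference of 0.53 (SE 0.20, limma adjusted p = 0.314).

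**Figure D4:**
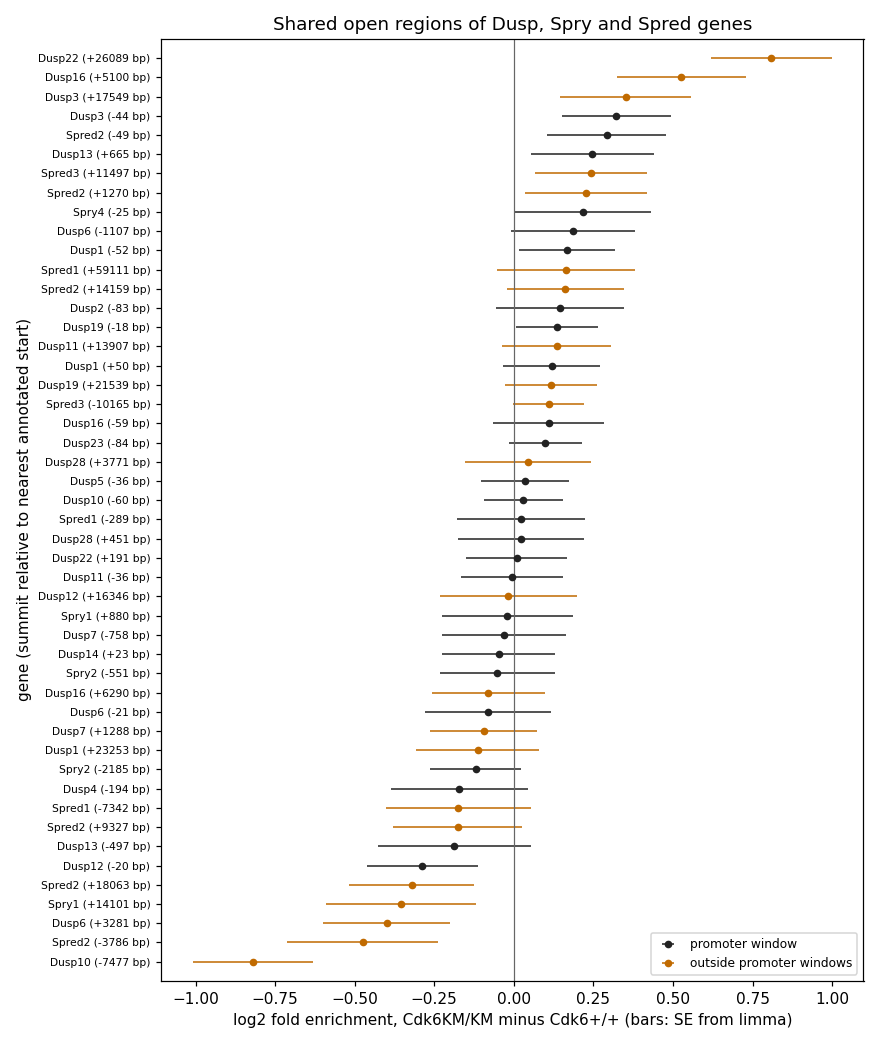
Difference in log2 fold enrichment, Cdk6KM/KM minus Cdk6+/+, for the 48 regions that every list held (points, with SE from limma as bars), ordered by value. Promoter regions (black) lie between -0.29 and 0.32, and the ends of the range are the Dusp10 upstream region at -0.82 and the Dusp22 intron at 0.81.

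The regions were described by sequence, as letters within 100 bp of the summit. Of the 35 feedback regions in promoter windows, 27 (77.1%) were rich in CpG, where 58.3% of regions at all protein-coding promoters were. The CArG box occurred in 2 of them (5.71%), at Dusp5 and at the distant Dusp1 start, and in 0.74% of all promoter regions. CRE occurred in 2 (5.71%, against 2.68%), at Dusp1 and Dusp8, and in the Dusp1 intron printed above. The Dusp5 sequence also holds an SP1 and an EBF core match, and the EBF core was found in 22.5% of all 102 regions, against 15% of all regions. ETS was found in 0 of 35 promoter regions, against 6.05%. RUNX was found in 13 of 67 regions outside the feedback genes' promoter windows (19.4%), against 26.8% of all regions outside any protein-coding promoter. These sets are unlike, since the 67 include regions in promoter windows of neighbouring genes. The Spred2 exon and both regions furthest apart in enrichment, at Dusp10 and Dusp22, carry a RUNX match. These counts are descriptions of letters and were given no test.

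Most promoters of other genes in the RAS to ERK pathway were open in both genotypes. Of 13 upstream genes, such as Grb2 and Shc1, all 13 had a promoter peak in every list. Of 11 kinase and scaffold genes, 10 did. The exception was the scaffold Ksr2, with 9.87 and 8.82 in the Cdk6KM/KM lists and no promoter peak in the Cdk6+/+ lists. Of 16 transcription targets and effectors, 14 did, including Egr2 (8.59, 10.8, 8.53 and 8.42, the highest promoter peak of each list) and Etv5 (11.3, 10.2, 11.5 and 10.5). Fosl1, a member of the FOS family, had a promoter peak of 4.28 and 6.36 in the Cdk6KM/KM lists only, at percentiles 3.2 and 33.5, and Ier3 had none. In all, 37 of these 40 genes (92.5%, against 47.5% of all genes) had a promoter peak in every list, 2 (5.0%, against 1.99%) in both Cdk6KM/KM lists only and 0 (against 0.513%) in both Cdk6+/+ lists only. Their windows held 174 regions, 12 of them (6.9%, against 7.82%) in both Cdk6KM/KM lists only and 0 (against 3.79%) in both Cdk6+/+ lists only.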

How the data were processed

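Members and gene lists were chosen with earlier results of these data known. According to the methods of the study and the processing notes, the authors trimmed reads (Trimmomatic 0.36), mapped them to mm10 (BWA 0.7.15), removed blacklisted, multiply mapped and low-quality reads (SAMtools 1.3.1) and called peaks per library with MACS2 2.1.0, shifting reads for the transposase cut. No control is named. The deposited fold enrichment is the authors' ratio of summit signal to local background in 1 library. The deposited -log10 p and -log10 q are the authors' values within that library. Peak lists hold no read totals, and depth was not derived. Summit pileup and background were recovered from fold enrichment and -log10 p under the Poisson model of MACS2, within 0.001 for 100% of peaks. The lowest background over the feedback regions was 65.3, 56.7, 55.1 and 48.4 read ends per 10 kb, in the list order above. Whether these values are a genome-wide floor that scales with depth was not tested.

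Genes, starts and windows came from GENCODE mouse release 21 (GRCm38), which places Spry3 on an unplaced sequence. The study used an earlier release. Promoter windows followed the study, and gene windows were added here. Peaks were merged (1 bp) over all 4 lists, and regions in 1 list were kept, whereas the study merged within a genotype and dropped them. A region was genotype-only where both lists of that genotype, and neither of the other, had a peak. Log2 fold enrichment (highest peak per region and list, median-centred) was compared with limma 3.58.1 (trend, Benjamini-Hochberg over 21012 regions, R 4.3.3), and the script was tested on simulated data. Counts used exact two-sided permutation tests. Every gene is accounted for, and values in each list are given for members that differ between genotypes, hold a genotype-only or called region, or lead their role group by promoter enrichment. Other members and the sequences beyond the strongest were chosen after their values were seen. CpG-rich means at least 50% GC and a CpG ratio of at least 0.6 within 500 bp of the summit. Alternatives changed windows, thresholds, list lengths, scaling and lists. Python 3.11.15, pandas 2.3.3, scipy 1.17.1 and pysam 0.24.0 were used.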

Additional observations from a re-analysis of the deposited data

How the results depend on the processing

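The difference in peaks per gene window (1.5) became -2 with peaks of -log10 q of at least 5 and -3 with equal list lengths, 4.5 within gene bodies and 13.5 with 50 kb either side (exact permutation p = 0.33), and ran from -2 to 5 when 1 list was left out. The promoter difference (3.0) stayed positive in every alternative run, from 2.5 to 3.5 when 1 list was left out. Cdk6KM/KM-only regions numbered 14 with windows extended by 50 kb and 10 to 17 when 1 list was left out (15 without Cdk6KM/KM replicate 1, 17 without replicate 2). Cdk6+/+-only regions numbered 2 within gene bodies and 10 to 15 when 1 list was left out (15 without Cdk6+/+ replicate 2). A call was made of 1 region lower in Cdk6KM/KM with the recovered pileup, and 0 to 1 region was called higher when 1 list was left out. The median difference of shared regions became 0.103 over the 15 above the median enrichment of all regions and -3e-04 with the mean over the peaks of a region. Over all tested regions, calls ran from 0 to 503 higher and 0 to 422 lower, the most with the pileup. Except where a list was left out or the window changed, the cause of these shifts was not tested. With 1 list left out, the remaining line of that genotype was assumed to vary like the lines of the other. The exclusion of chromosomes 13 and 18 was chosen after seeing the data. Nothing ties a numbered line to a line of the other genotype. With the unnumbered list as number 1, deviations of same-numbered lists correlated at r = 0.0303 over regions, and a replicate block, also added after seeing the data, gave 0 called feedback regions, a median of 0.026 and 72 higher and 34 lower calls over all regions, against 13 and 10. Depth was not derived, and 2 lines per genotype limit the precision.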
